A study of Mus musculus with 39 samples.

Results

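Masseter, the jaw-closing muscle of the cheek, was profiled by bulk RNA-seq 28 days into a mouse model of referred pain in which collagenase was given in a neighbouring muscle. The comparison takes all masseter libraries labelled 28 days, which are 7 of the 39 samples in the series. In 3 libraries, wild-type mice had received 4 injections of 0.2 to 0.5 U of collagenase type I, an enzyme that digests fibrillar collagen, in the temporal muscle (TM), so the masseter sequenced was not the muscle injected. In 4 libraries, wild-type mice had received saline in the masseter (MM) itself. The enzyme, the injected muscle and the read layout all differ between these groups. The collagenase libraries are paired-end and the saline libraries single-end, as read from the deposited gene lengths. The labels' protocols also name a HiSeq 2500 and a NovaSeq 6000, so the sequencer and run may differ along with the layout. Effects of treatment, site, layout and any such difference cannot be told apart here. Masseter from mice with saline in the temporal muscle was not analysed here. A paired-end group of 4 saline libraries at day 38, also injected in the masseter, is given beside the main values; it matches the collagenase libraries in layout and not in day. The labels do not say that the libraries came from separate animals, give no age or strain, and name no pooling, and the p-values therefore describe only library-to-library spread, which may be technical. Libraries are numbered within each group only to name them.

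Totals were 18.9 to 21.5 M expected counts in the collagenase libraries, 18.0 to 23.0 M in the saline day 28 libraries and 21.0 to 28.1 M in the saline day 38 libraries, where M stands for mega. Levels are given as counts per M counts (CPM), scaled between libraries by TMM factors. The defining muscle transcripts were high in all of them: Ckm, the muscle creatine kinase, was at 16750, 18800 and 16940 CPM after collagenase and at 12970 to 20720 CPM in saline day 28. Acta1, skeletal actin, was at 24230 to 25710 CPM after collagenase and at 19200 to 33350 CPM in saline day 28. Neither differed by edgeR's quasi-likelihood test (Ckm log2 fold change 0.02 ± 0.15 SE, adjusted p = 0.946; Acta1 -0.05 ± 0.16, adjusted p = 0.879). Xist, transcribed from the inactive X, stood at 378 to 493 CPM after collagenase and 283 to 332 CPM in the day 28 saline group, and the Y-linked Ddx3y was at or near 0 in all 7. In saline day 38 the pattern was the opposite, with Xist at 0.0701 to 0.340 CPM and Ddx3y at 77.2 to 138 CPM, so a difference from that group carries day and sex-linked transcripts with it. In bulk tissue, fewer cells of a type and less RNA per cell cannot be told apart. Some libraries also carried transcripts of neighbouring tissues. Bpifa2, a salivary secreted protein, was at 50000 CPM in collagenase library 1, at 31430 and 3566 CPM in saline day 28 libraries 1 and 4, and at 21800 CPM in saline day 38 library 2, against 3.82 to 19.9 CPM in the other libraries of these groups.

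Masseter fibres contract through fast myosin heavy chains, each encoded by its own gene, and the fibres sit in a collagen scaffold made by resident fibroblasts. The muscle attaches to bone along the jaw and cheek and lies against skin, salivary gland and fat. Collagenase injury is followed in general by entry of neutrophils and macrophages, new matrix and release of mediators that act on pain fibres, and referred pain is pain felt in a tissue other than the injured one.

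After collagenase in the temporal muscle, 432 of 14652 genes tested differed from saline day 28 in masseter at adjusted p under 0.05 (2.95%), 172 higher (1.17%) and 260 lower (1.77%). The higher genes included collagens, matrix-modifying enzymes and granule proteins of neutrophils, and the lower ones included keratins, neurofilaments and many pseudogenes. The median log2 fold change over all genes was -0.03. Fold changes tended to be higher in genes of greater effective length (Spearman correlation 0.24). That correlation was -0.01 against saline day 38, where the layout matches, and 0.19 for saline day 38 against saline day 28. The part of layout in this relation was not tested. Without regard to a test, the 3 collagenase libraries lay wholly above or wholly below the 4 saline libraries for 2634 genes (18.0%), 1379 above (9.41%) and 1255 below (8.57%). The count moved with single libraries. It was 239, 123 and 168 without collagenase library 1, 2 and 3 in turn. Without saline library 1, 2, 3 and 4 in turn it was 304, 470, 646 and 248. The count was 67 without the 3 libraries of day 28 that carried salivary transcripts, a choice made after seeing the data. These were collagenase library 1 and saline libraries 1 and 4, so both groups were also smaller. Whether the salivary transcripts or the smaller groups lowered the count was not tested. With each gene's effective length taken into the fit, the split turned to 227 higher and 141 lower. Set against saline day 38 the collagenase libraries differed in 1599 genes (10.9%), 750 higher (5.12%) and 849 lower (5.79%), and the saline groups differed from each other in 3608 genes (24.6%). These comparisons share libraries with the first. Of the 86 named or listed genes called between the day 28 groups, 34 were called in all 7 fits that left out a library.

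Of the fast and slow fibre genes listed, Myh4 was the 1 called between the day 28 groups, beside 2.95% called over all genes. Fsd2, at 7:81534354-81566981 (GRCm38), encodes a striated-muscle protein of the fibronectin type III and SPRY domain family. It was at 135, 126 and 134 CPM after collagenase, against 313, 168, 294 and 288 CPM in saline day 28 and 296 to 305 CPM in saline day 38. All 3 collagenase libraries were below all 8 saline libraries, which the rule that named the gene required. The log2 fold change was -1.01 ± 0.15 (SE) against saline day 28 (edgeR adjusted p = 0.00329) and -1.19 ± 0.15 against saline day 38 (edgeR adjusted p = 0.000567), while the saline groups differed by 0.18 ± 0.14 (edgeR adjusted p = 0.364). It was the one gene with a fall of at least 1 on the log2 scale that met the naming rule against both saline groups, beside 23 such rises. The call held without each of the 7 libraries in turn. It was lost when those 7 alone were fitted (edgeR adjusted p = 0.102), a fit that makes 93 calls in all.

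**Figure D1:**
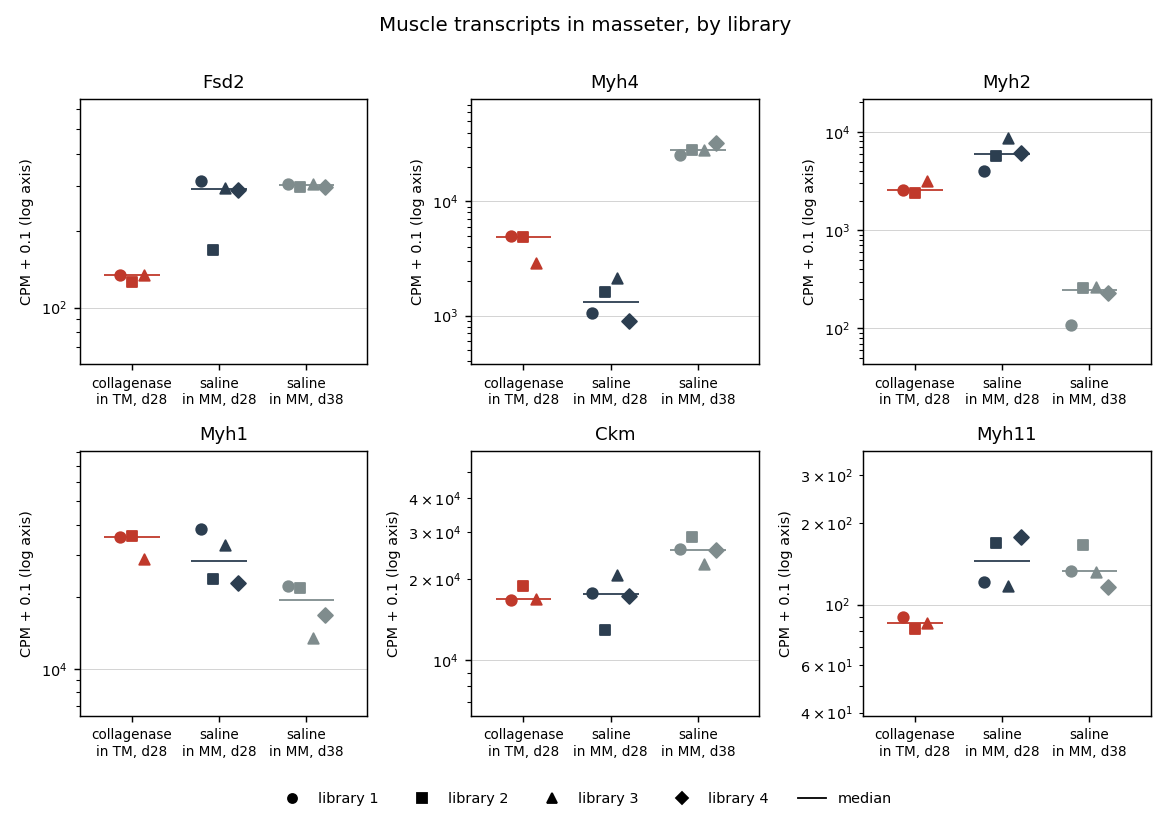
Level of 6 muscle transcripts in each library (CPM plus 0.1, log axis) for the 3 libraries of collagenase in TM, the 4 of saline in MM at day 28 and the 4 of saline in MM at day 38; each marker is a library and each line a median. Fsd2 sits at 126 to 135 CPM after collagenase and at 168 or more in every saline library, while Myh4 and Myh2 after collagenase lie between the 2 saline groups.

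Of the myosin heavy chains of skeletal fibres, Myh4 rose and the others tested did not pass. Myh4, the IIB chain of the fastest fibres, was at 4965, 4849 and 2874 CPM after collagenase and at 1045, 1599, 2113 and 904 CPM in saline day 28, with no overlap. It rose by 1.58 ± 0.28 (SE) on the log2 scale (edgeR adjusted p = 0.00869), with a call in each of the 7 fits that left out a library, but adjusted p = 0.111 when only the 7 libraries were fitted. Saline day 38 was far higher, at 25240 to 32700 CPM, so Myh4 fell against that group (log2 fold change -2.76 ± 0.31, edgeR adjusted p = 0.000226). Myh2, the IIA chain, had the opposite order: 2540, 2376 and 3159 CPM after collagenase, 3998 to 8651 CPM in saline day 28 and 108 to 263 CPM in saline day 38. Its log2 fold change of -1.18 ± 0.37 against saline day 28 did not pass the test (edgeR adjusted p = 0.0988). Myh1, the IIX chain, was at 28780 to 35980 CPM after collagenase and at 22730 to 38440 CPM in saline day 28 (log2 fold change 0.18 ± 0.27, edgeR adjusted p = 0.736). Per transcript length, Myh1 led in both groups of day 28, at 7996 to 10550 TPM (transcripts per M transcripts) after collagenase and 7293 to 11230 TPM in saline. Next after collagenase stood Myh4 at 862 to 1418 TPM, the perinatal Myh8 at 985 to 1048 TPM and Myh2 at 566 to 940 TPM. Myh4 overlapped both others, and in collagenase library 3 Myh2 at 940 TPM was above Myh4 at 862 TPM. In saline day 28 the order was Myh2 at 1156 to 2577 TPM and Myh8 at 1446 to 1839 TPM, which overlap, then Myh4 at 289 to 635 TPM. Saline day 38, the group with Y-linked transcripts, held Myh4 at 6419 to 8750 TPM and Myh2 at 28.0 to 72.7 TPM.

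Of the 15 fast fibre genes listed, Myh4 was the one called, with a list median of -0.06 beside -0.03 over all genes. None of 17 slow and cardiac fibre genes was called in the main fit (median -0.44), 1 of them by DESeq2 and 3 at an unadjusted p under 0.05. Of the 17, 1 had a fold change above 0. In none did the collagenase libraries lie wholly below saline day 28, as they did for 8.57% of all genes. Myoz2, a Z-disc protein of slow fibres, was at 21.0 to 42.4 CPM after collagenase and 41.7 to 117 CPM in saline day 28 (log2 fold change -1.33 ± 0.38, edgeR adjusted p = 0.0743). Of 20 genes of developmental myosins and regeneration, 20 of calcium handling, 15 of the neuromuscular junction and 25 of atrophy, none was called, with medians of 0.30, 0.04, -0.08 and -0.06. At an unadjusted p under 0.05 these lists gave 5, 2, 4 and 2 genes, and DESeq2 called 3, 0, 1 and 1. Over all 14652 genes tested, 21.3% had an unadjusted p under 0.05 and DESeq2 called 1058. Counts of these kinds for every list, here and below, stand beside those figures. In the first list 13 genes had a fold change above 0. The collagenase libraries lay wholly above saline day 28 in 4 and wholly below in 2 (9.41% and 8.57% over all genes). Its myosins Myh3 and Myh8 were lower per transcript length. Myh3 was at 0.40 to 0.71 TPM after collagenase and 1.16 to 2.21 TPM in saline day 28, and Myh8 at 985 to 1048 TPM against 1446 to 1839 TPM. The satellite cell gene Pax7 was at 3.90 to 4.27 CPM against 1.79 to 3.37 CPM in saline day 28, a range that did not overlap, with adjusted p = 0.145. Its day 38 saline values were 2.20 to 3.96 CPM.

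The lists of energy genes held some called genes, where 2.95% were called over all genes. Among 49 nuclear subunits of oxidative phosphorylation, Atp5j and Cox4i1 were lower and none was higher, with a median log2 fold change of -0.14. Of the 49, 7 had a fold change above 0. The direction depended on the scale: with the effective length offset 4 of the 49 were higher and none lower (median 0.16), and on log2 TPM 1 was higher and none lower (median 0.03). Atp5j, a subunit of ATP synthase, was at 274 to 287 CPM after collagenase, 326 to 428 CPM in saline day 28 and 260 to 294 CPM in saline day 38 (log2 fold change -0.51 ± 0.09, edgeR adjusted p = 0.00973). The call was lost without collagenase library 2 (adjusted p = 0.0566), with the effective length offset (0.211) and on log2 TPM (0.346 and 0.349). Cox4i1, a subunit of cytochrome c oxidase, differed by -0.41 ± 0.09 (edgeR adjusted p = 0.0327) and was called in 2 of the 7 fits that left out a library, and neither with the length offset (adjusted p = 0.776) nor on log2 TPM (0.606 and 0.613). Of 30 genes of fatty acid use, 2 rose. Ppargc1b, a coactivator of mitochondrial and lipid genes, was at 32.8, 23.1 and 35.8 CPM after collagenase, 12.5 to 19.1 CPM in saline day 28 and 14.4 to 20.7 CPM in saline day 38. Its log2 fold change was 1.04 ± 0.24 (edgeR adjusted p = 0.0327), and the call was lost without collagenase library 1 or 3 or saline library 1, 2 or 4, at adjusted p of up to 0.129. Acot2, a mitochondrial thioesterase, rose by 0.50 ± 0.12 (edgeR adjusted p = 0.0402), with a call in 2 of the 7 fits that left out a library. In the smooth muscle and pericyte list of 12, Myh11, the smooth muscle myosin, fell and the receptor Pdgfrb rose (log2 fold change 0.51 ± 0.13, edgeR adjusted p = 0.0424, kept only without saline library 4). Myh11 was at 89.6, 80.9 and 85.5 CPM after collagenase, 116 to 177 CPM in saline day 28 and 116 to 165 CPM in saline day 38, lower in all 3 libraries than in any of the 8 (log2 fold change -0.77 ± 0.18, edgeR adjusted p = 0.0381). Without any one of the collagenase libraries, or saline library 2 or 4, its adjusted p was 0.0651 to 0.151.

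A few small shifts were narrow in spread and alike against both saline groups; they were picked with their values in view. Cltb, a clathrin light chain, was at 66.4, 71.7 and 74.8 CPM after collagenase, 89.1 to 98.1 CPM in saline day 28 and 91.2 to 95.4 CPM in saline day 38 (log2 fold change -0.42 ± 0.06 against day 28, edgeR adjusted p = 0.00303). Rab7, a GTPase of late endosomes, was at 54.3 to 65.6 CPM after collagenase, 81.8 to 94.4 CPM in saline day 28 and 77.5 to 85.9 CPM in saline day 38 (log2 fold change -0.56 ± 0.09, edgeR adjusted p = 0.00466). Dot1l, a histone methyltransferase, went the other way, at 65.0 to 75.8 CPM against 43.4 to 53.5 CPM and 40.4 to 50.0 CPM (log2 fold change 0.46 ± 0.12, edgeR adjusted p = 0.045). For all 3 genes the collagenase libraries stood clear of all 8 saline libraries, but the genes were picked with these values in view. Over all genes, 18.0% stood clear of saline day 28, and the share clear of all 8 was not counted. Cltb and Rab7 were called in each fit that left out a library, but on log2 TPM their adjusted p was 0.152 and 0.399, and with the length offset that of Rab7 was 0.349. Dot1l was called only in the fit without saline library 3, with adjusted p of up to 0.148 without another.

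A minority of the matrix genes listed were higher in masseter after collagenase than in saline day 28. Of 20 collagen genes tested, 5 rose and none fell, with a median log2 fold change of 0.95, and 18 had a fold change above 0. Col1a1, a chain of type I collagen at 11:94936224-94953042 (GRCm38), was at 672, 1580 and 1681 CPM after collagenase and at 325, 411, 79.5 and 103 CPM in saline day 28. The groups did not overlap, and the log2 fold change was 2.51 ± 0.61 (edgeR adjusted p = 0.0424). Saline day 38 held 368 to 851 CPM, which overlaps the collagenase range, and against it the difference was 1.13 ± 0.60 (edgeR adjusted p = 0.257). Col1a2, its partner chain, was at 772 to 1925 CPM after collagenase, 144 to 586 CPM in saline day 28 and 620 to 1301 CPM in saline day 38 (log2 fold change against day 28 of 2.08 ± 0.51, edgeR adjusted p = 0.0433). The chains of type V collagen, which seeds type I fibrils, followed: Col5a2 rose by 1.34 ± 0.33 (edgeR adjusted p = 0.0435) and Col5a1 by 1.37 ± 0.34 (edgeR adjusted p = 0.047). Col3a1, the type III chain, was at 543 to 948 CPM against 179 to 445 CPM in saline day 28 and did not pass the test (log2 fold change 1.17 ± 0.44, edgeR adjusted p = 0.15).

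Col11a1, a chain of the type XI collagen of cartilage and tendon, was at 22.0, 50.5 and 64.4 CPM after collagenase, 1.32 to 11.6 CPM in saline day 28 and 3.76 to 13.4 CPM in saline day 38. It was higher than in both saline groups (log2 fold change 2.96 ± 0.69, edgeR adjusted p = 0.0368, and 2.54 ± 0.68, edgeR adjusted p = 0.0297). All 3 libraries exceeded all 8, which the rule that named the gene required. Among 32 genes of collagen maturation and matrix glycoproteins, Plod2 and Serpinh1 rose and none fell (median 0.96). Plod2, a lysyl hydroxylase that shapes collagen crosslinks, was at 8.60, 12.3 and 16.2 CPM after collagenase, 4.36 to 6.55 CPM in saline day 28 and 4.59 to 6.11 CPM in saline day 38 (log2 fold change 1.13 ± 0.26, edgeR adjusted p = 0.0309, and 1.24 ± 0.26, edgeR adjusted p = 0.00763). Serpinh1, the collagen chaperone, had no call in any of the 7 fits that left out a library. Tnc, a matrix glycoprotein of injured tissue, was at 28.6, 61.1 and 59.8 CPM after collagenase against 4.72 to 19.6 CPM in saline day 28, just outside the threshold (log2 fold change 2.13 ± 0.55, edgeR adjusted p = 0.0533). None of 15 basement membrane genes was called (median 0.23; 4 at an unadjusted p under 0.05, 1 by DESeq2). None of 23 matrix proteases and inhibitors was called (10 at an unadjusted p under 0.05, 4 by DESeq2), and Mmp2 was at 81.7 to 149 CPM against 32.9 to 68.0 CPM in saline day 28 (log2 fold change 1.15 ± 0.32, edgeR adjusted p = 0.0686).

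The count of 5 collagens was 0 without collagenase library 2, 0 without collagenase library 3 and 0 without saline library 4, and 3, 2, 5 and 1 without collagenase library 1 and saline libraries 1, 2 and 3. When the 3 libraries with salivary transcripts were left out it was 0, with a median of 1.31, and it was 2 with the length offset and 1 and 0 on log2 TPM. Col11a1 kept its call in 3 and Plod2 in 4 of the 7 fits that left out a library, neither without collagenase library 2 (adjusted p = 0.11 and 0.0998), collagenase library 3 (0.119 and 0.145) or saline library 4 (0.08 and 0.0704), and Col11a1 not without saline library 1 (0.0557). Against saline day 38 the collagen list gave 4 higher and 3 lower and a median of -0.33, and saline day 38 exceeded saline day 28 in 12 of the 20 (median 0.94). The sign of the list's median thus changed with the saline group.

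**Figure D2:**
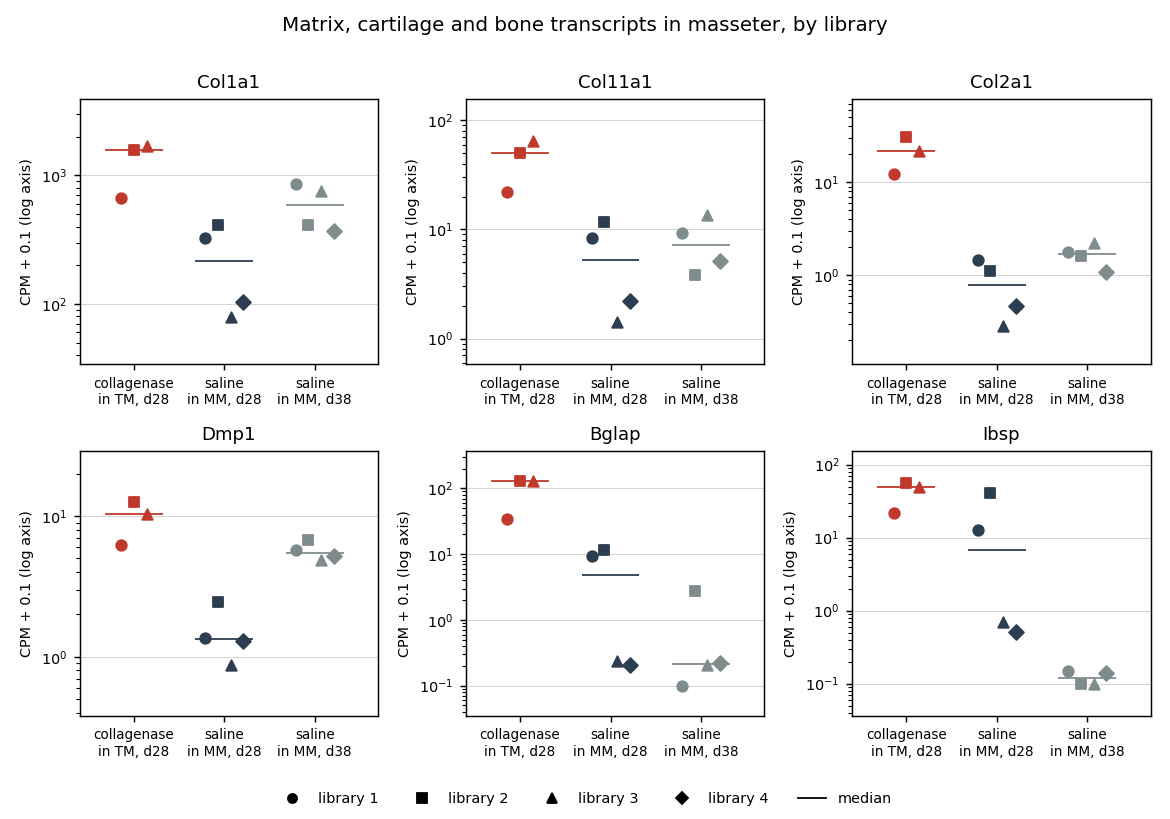
Level of 6 matrix, cartilage and bone transcripts in each library (CPM plus 0.1, log axis), with the same groups and markers as in the plot of muscle transcripts; lines are medians. Col1a1 at 672 to 1681 CPM after collagenase overlaps saline day 38, Col2a1 at 12.1 to 30.9 CPM overlaps neither saline group, and Ibsp at 12.6 and 40.2 CPM in saline day 28 libraries 1 and 2 lies near the collagenase libraries.

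Of the cartilage and bone markers tested, Col2a1 and Dmp1 were higher than in saline day 28 and the others did not pass. Col2a1, the type II collagen of cartilage at 15:97975602-98004724 (GRCm38), was at 12.1, 30.9 and 21.7 CPM after collagenase, 1.35, 1.01, 0.182 and 0.363 CPM in saline day 28 and 0.997 to 2.10 CPM in saline day 38. The ranges were far apart, with a log2 fold change of 4.87 ± 0.74 (edgeR adjusted p = 0.00329) and of 3.77 ± 0.70 against saline day 38 (edgeR adjusted p = 0.0046). The call held in every fit that left out a library and under all 9 planned changes of method. It was the 1 gene called of 5 cartilage markers tested, and against saline day 38 Acan, the cartilage proteoglycan, and Hapln1, its link protein, were called too. Acan was at 1.72, 4.39 and 8.51 CPM after collagenase, 0.0909 to 1.70 CPM in saline day 28 and 0 to 0.316 CPM in saline day 38. Sox9, the transcription factor of cartilage, was at 2.60 to 12.6 CPM after collagenase and 1.54 to 12.0 CPM in saline day 28, overlapping ranges.

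Dmp1, a matrix protein of osteocytes, was at 6.09, 12.6 and 10.3 CPM after collagenase, 0.772 to 2.35 CPM in saline day 28 and 4.77 to 6.66 CPM in saline day 38 (log2 fold change 2.78 ± 0.39, edgeR adjusted p = 0.00159), and was called in every fit that left out a library. It was the 1 called of 12 bone markers, although all 12 had a fold change above 0 and the median was 2.88. Against saline day 38, 9 of the 12 were higher (median 4.96). Bglap, osteocalcin of osteoblasts, was at 34.5, 128 and 129 CPM after collagenase, at 9.26 and 11.6 CPM in saline day 28 libraries 1 and 2 and at 0.136 and 0.104 CPM in libraries 3 and 4. Ibsp, bone sialoprotein, showed the same division: 21.8, 55.8 and 48.9 CPM after collagenase, 12.6 and 40.2 CPM in saline libraries 1 and 2, and 0.591 and 0.415 CPM in libraries 3 and 4. Both genes were at 9.26 CPM or more in all day 28 libraries except saline libraries 3 and 4. The summed level of the 12 markers was 227 to 541 CPM after collagenase, 48.0 to 244 CPM in saline day 28 and 50.8 to 65.6 CPM in saline day 38, with none of the 12 at 0 in either day 28 group. Acp5, the osteoclast phosphatase, was at 33.0 to 80.0 CPM after collagenase and 7.91 to 40.1 CPM in saline day 28 (log2 fold change 1.50 ± 0.85, edgeR adjusted p = 0.317). The part of these markers in the collagen result was not tested; Col1a1, Bglap and Ibsp were all lowest in collagenase library 1 of the 3.

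Several neutrophil genes rose after collagenase, some of them among the largest changes. Of 14 neutrophil markers tested, 6 rose and none fell, all 14 had a fold change above 0, and the median was 3.82. Elane, neutrophil elastase, was at 1.87, 16.1 and 8.78 CPM after collagenase and at 0 to 0.0840 CPM in saline day 28. Its log2 fold change was 7.45 ± 1.81 (edgeR adjusted p = 0.0421) and 8.36 ± 1.94 against saline day 38 (edgeR adjusted p = 0.0143). Prtn3, proteinase 3, was at 2.21, 13.8 and 6.90 CPM after collagenase and at most 0.207 CPM in any saline library of either group (log2 fold change 6.28 ± 1.50, edgeR adjusted p = 0.0384). Mpo, myeloperoxidase, was at 5.40, 39.1 and 20.1 CPM after collagenase and 0 to 0.588 CPM in saline day 28, and just missed the threshold (log2 fold change 6.97 ± 1.84, edgeR adjusted p = 0.0557).

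These 3 granule genes are expressed at the promyelocyte stage, before neutrophils leave the marrow. Their promoters, from RefSeq on GRCm38.p6 (250 bases before and 50 after the gene's start), are shown because each holds the letters GAGGAAGT, an Ets-type motif noticed in these sequences and then searched for on both strands. Capitals mark the match.
Elane, chr10:79886062-79886361, plus strand: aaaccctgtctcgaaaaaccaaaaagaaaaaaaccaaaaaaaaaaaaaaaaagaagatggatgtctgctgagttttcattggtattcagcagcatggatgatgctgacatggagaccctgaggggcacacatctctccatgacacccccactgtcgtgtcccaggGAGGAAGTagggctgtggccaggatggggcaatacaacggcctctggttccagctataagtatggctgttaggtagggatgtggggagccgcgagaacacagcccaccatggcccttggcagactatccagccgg
Prtn3, chr10:79879417-79879716, plus strand: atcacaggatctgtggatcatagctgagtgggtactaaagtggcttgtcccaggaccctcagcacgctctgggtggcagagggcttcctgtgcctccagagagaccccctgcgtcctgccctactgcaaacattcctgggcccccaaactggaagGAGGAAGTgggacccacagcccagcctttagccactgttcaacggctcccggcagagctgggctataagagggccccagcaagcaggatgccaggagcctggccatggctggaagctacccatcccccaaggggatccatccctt
Mpo, chr11:87793534-87793833, plus strand: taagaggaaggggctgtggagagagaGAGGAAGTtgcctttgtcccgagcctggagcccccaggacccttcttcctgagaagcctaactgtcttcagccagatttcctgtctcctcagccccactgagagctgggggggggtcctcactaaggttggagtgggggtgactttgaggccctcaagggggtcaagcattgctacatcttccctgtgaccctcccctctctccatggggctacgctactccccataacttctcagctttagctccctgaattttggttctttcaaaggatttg
Camp, chr9:109849407-109849706, minus strand: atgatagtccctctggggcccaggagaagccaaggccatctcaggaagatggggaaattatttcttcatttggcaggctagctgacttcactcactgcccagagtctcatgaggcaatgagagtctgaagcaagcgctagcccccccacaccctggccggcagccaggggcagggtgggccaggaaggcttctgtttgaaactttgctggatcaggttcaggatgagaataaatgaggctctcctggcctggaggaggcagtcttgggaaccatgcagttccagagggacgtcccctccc
The match begins 85 bases before the start of Elane, 95 before that of Prtn3 and 224 before that of Mpo. Camp, a granule gene of a later stage, is shown as a promoter with no match in this window. The letters did not divide the genes by stage: Ctsg, cathepsin G of the early granules, has no match, and S100a8, a later-stage gene, has 1, on the opposite strand. They occur in 4 of 11 granulocyte genes examined and in 1052 of all 32851 promoters (3.20%). The 4 include Elane, Prtn3 and Mpo, among the sequences in which the letters were noticed, so these shares cannot show an excess. A match is a description of the letters and not a sign of binding.

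Later-stage granule and surface genes followed the same order across libraries. Lcn2, lipocalin 2, was at 3.93, 29.3 and 15.5 CPM after collagenase and 0.318 to 1.51 CPM in saline day 28 (log2 fold change 4.27 ± 1.03, edgeR adjusted p = 0.0416). Camp, the cathelicidin precursor, was at 8.60, 58.5 and 29.6 CPM against 2.04 to 2.84 CPM (log2 fold change 3.67 ± 0.90, edgeR adjusted p = 0.0432). Retnlg, a resistin-like protein of granulocytes, was at 1.43, 8.79 and 5.87 CPM against 0 to 0.311 CPM (log2 fold change 5.60 ± 1.24, edgeR adjusted p = 0.0277). Csf3r, the receptor for the granulocyte growth factor G-CSF, rose by 3.25 ± 0.66 (edgeR adjusted p = 0.0184) and Padi4, the enzyme that citrullinates histones in neutrophils, by 3.95 ± 0.82 (edgeR adjusted p = 0.0203). In each of these genes collagenase library 2 was highest, library 3 next and library 1 lowest, and no saline day 28 library reached library 1. The calprotectin chain S100a9 was at 19.6, 172 and 80.5 CPM after collagenase and 0.349 to 3.11 CPM in saline day 28 (log2 fold change 5.88 ± 1.62, edgeR adjusted p = 0.0649). Its partner S100a8 had 21.9 CPM in saline day 28 library 2, above the 14.8 CPM of collagenase library 1.

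**Figure D3:**
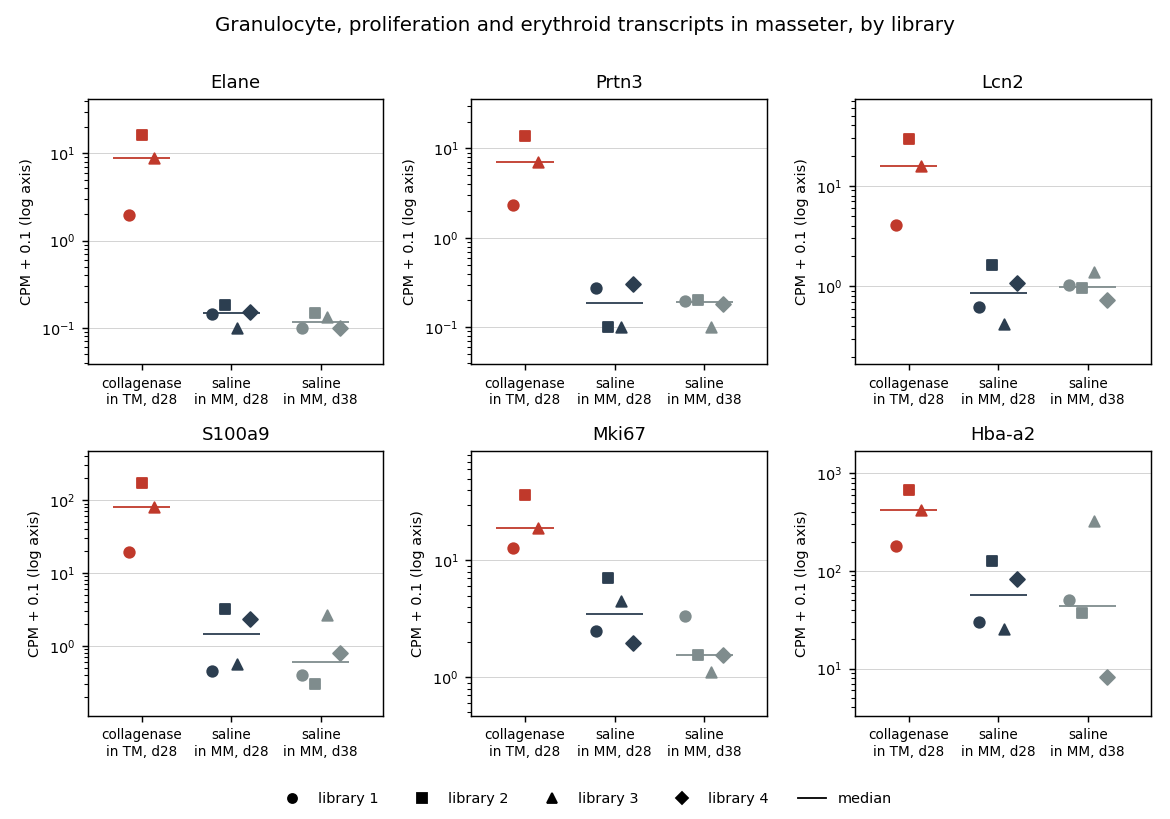
Level of 6 granulocyte, proliferation and erythroid transcripts in each library (CPM plus 0.1, log axis), with the same groups and markers as in the plot of muscle transcripts; lines are medians. Collagenase library 2 is highest and library 1 lowest of the 3 in every panel, with Elane from 1.87 to 16.1 CPM against 0.0840 or less in saline day 28.

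Outside the list, the myeloid chitinase-like gene Chi3l3 was at 3.93, 42.2 and 22.1 CPM after collagenase and 0 to 0.798 CPM in saline day 28 (log2 fold change 6.14 ± 1.48, edgeR adjusted p = 0.0407). Ppbp, a chemokine of platelets and megakaryocytes, was at 1.77, 19.9 and 10.2 CPM against 0 to 0.262 CPM (log2 fold change 6.14 ± 1.24, edgeR adjusted p = 0.0183). Slfn4, a Schlafen gene of the myeloid lineage, rose by 4.27 ± 0.81 (edgeR adjusted p = 0.013) and Clec12a, a myeloid lectin receptor, by 2.45 ± 0.60 (edgeR adjusted p = 0.0424). Transcription factors of the lineage, picked with their values in view, were low in level and also called: Cebpe, required for late granulocyte maturation, was at 0.295, 2.47 and 0.985 CPM against 0 to 0.175 CPM in saline day 28 (log2 fold change 4.09 ± 0.97, edgeR adjusted p = 0.0381). Gfi1, a repressor of the granulocyte line, rose by 2.50 ± 0.63 (edgeR adjusted p = 0.048), and Tal1, a factor of blood stem and erythroid cells, by 0.92 ± 0.19 (edgeR adjusted p = 0.0199). Without collagenase library 2 none of these 7 genes was called, at adjusted p of 0.0709 for Slfn4 to 0.187 for Gfi1; Ppbp, Slfn4 and Tal1 kept their calls without any other library, and Chi3l3, Clec12a, Cebpe and Gfi1 in 1 or 2 of the 7 fits.

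Of the proliferation and erythroid genes listed, 1 passed the test. Of 22 cell cycle genes, 21 had a fold change above 0 and the median was 1.86, with Ccnb2, a mitotic cyclin, the 1 called (1.87, 3.36 and 1.79 CPM against 0.409 to 0.756 CPM; log2 fold change 2.09 ± 0.52, edgeR adjusted p = 0.0442, kept only without saline library 2). Mki67, a marker of cycling cells, was at 12.7, 36.1 and 18.8 CPM against 1.87 to 7.02 CPM in saline day 28 (log2 fold change 2.52 ± 0.67, edgeR adjusted p = 0.0561). Against saline day 38, 12 of the 22 were called higher and none lower. None of 9 erythroid markers was called (median 2.68; 3 at an unadjusted p under 0.05, 1 by DESeq2). Hba-a2, an alpha globin whose reads can be shared with its near-identical copy, was at 179, 680 and 418 CPM after collagenase and 25.1 to 128 CPM in saline day 28 (log2 fold change 2.68 ± 1.20, edgeR adjusted p = 0.22). None of 20 macrophage markers was called (median 0.84; 5 at an unadjusted p under 0.05, 1 by DESeq2). Csf1r, the macrophage growth factor receptor, was at 16.9 to 23.7 CPM against 9.28 to 13.2 CPM (log2 fold change 0.92 ± 0.37, edgeR adjusted p = 0.179).

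The neutrophil count of 6 rested on few libraries. It stood at 6 without collagenase library 1 and 5 without saline library 2, but it was 0 without collagenase library 2, 1 without collagenase library 3, 1 without saline library 1, 3 without saline library 3, 2 without saline library 4 and 0 without the 3 libraries with salivary transcripts, although the median fold change stayed between 3.10 and 4.53 in those fits. Elane and Prtn3 kept their calls in the fit without collagenase library 1 alone of the 7. Limma voom called 1, DESeq2 10, and the fit of the 7 libraries alone 1. Against saline day 38, 13 of the 14 were higher (median 5.60). The summed level of the 14 markers was 106, 793 and 396 CPM after collagenase, 7.95 to 67.2 CPM in saline day 28 and 6.91 to 13.2 CPM in saline day 38. The bone sum kept collagenase library 1 lowest too, at 227 CPM against 541 and 528 CPM, and Mmp9, counted here as a neutrophil marker, is also made by osteoclasts. In masseters injected with collagenase themselves, the neutrophil sum was 28.9, 243 and 43.9 CPM at day 38. At day 52 it was 26.3, 21.0 and 330 CPM. In the same order the bone sum was 70.1, 357 and 123 CPM, and 49.3, 52.3 and 215 CPM. The part of bone and its marrow in these values was not tested.

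Several epidermal transcripts were lower after collagenase than in saline day 28. Krt2, a keratin of the upper epidermis at 15:101810689-101818956 (GRCm38), was at 65.4, 67.6, 80.0 and 83.4 CPM in saline day 28 and had no count in the 3 collagenase libraries or in saline day 38. Set against a floor of 3 counts in each collagenase library, it was at least 517-fold lower after collagenase (edgeR adjusted p = 3.61e-05). Krt10, its partner type of the suprabasal layers, was at 71.1, 104, 88.2 and 98.3 CPM in saline day 28, 2.60, 3.36 and 7.12 CPM after collagenase and 2.21 to 5.53 CPM in saline day 38 (log2 fold change -4.37 ± 0.40, edgeR adjusted p = 2.49e-05). Krt1 had 18.2 to 25.9 CPM in saline day 28, against 0, 0 and 0.582 CPM after collagenase (log2 fold change -6.81 ± 0.88, edgeR adjusted p = 0.000858). Krt24 had no count after collagenase and 6.29 to 9.43 CPM in saline day 28, at least 55.9-fold lower on the same floor, and Krt9, a keratin of palm and sole skin, was at 7.48 to 9.69 CPM with 1 count in all after collagenase, a ratio of 548 (exact 95% counting interval 98.0 to 21700). The envelope genes Lor and Hrnr and the epidermal calmodulin-like Calm4 were lower as well, by -5.18 ± 1.18 (edgeR adjusted p = 0.0313), -6.55 ± 0.88 (edgeR adjusted p = 0.0013) and -4.97 ± 1.11 (edgeR adjusted p = 0.0287) on the log2 scale. Lor and Calm4 lost their calls without collagenase library 1 or 2 or saline library 4, at adjusted p of up to 0.116 and 0.125, and Hrnr kept its call in each fit.

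The sum of Krt1, Krt2, Krt9, Krt10 and Krt24 was 205 ± 24.3 CPM (SD, n = 4) in saline day 28 and 4.57 ± 2.73 CPM (SD, n = 3) after collagenase, so the saline libraries agreed closely with one another. The basal keratins did not share this: Krt5 was at 5.37, 40.5, 12.5 and 11.0 CPM in saline day 28 and 3.93 to 6.52 CPM after collagenase, overlapping (log2 fold change -1.62 ± 0.59, edgeR adjusted p = 0.139), and Krt14 likewise gave adjusted p = 0.141. Of 11 keratinocyte markers tested, 3 fell and none rose (median -1.62). In saline day 38 against saline day 28, Krt2, Krt10 and Krt1 were lower by similar amounts (Krt10 log2 fold change -4.73 ± 0.36, edgeR adjusted p = 1.38e-06), and in the masseters injected with collagenase themselves Krt2 was at 0 to 0.0822 CPM. High levels of Krt1, Krt2 and Krt10 were thus seen in the single-end saline group and not in the paired-end saline group of day 38. Both saline groups were injected in the masseter. They differ in layout, day and sex-linked transcripts, which cannot be told apart. Whether these keratin transcripts, and the neuronal ones that follow, came from the masseter or were carried over from other libraries of that layout was not tested.

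Several neuronal transcripts showed the same pattern. Nefl, the light neurofilament chain, was at 3.36, 3.65, 4.41 and 3.89 CPM in saline day 28, 0.0983, 0.148 and 0.0448 CPM after collagenase and 0.0971 to 0.125 CPM in saline day 38 (log2 fold change -5.24 ± 0.38, edgeR adjusted p = 1.41e-06). Nefm, the medium chain, fell by 4.05 ± 0.66 (edgeR adjusted p = 0.00502) and Nefh, the heavy chain, by 3.73 ± 0.77 (edgeR adjusted p = 0.0199). Nefh lost its call without any one of the collagenase libraries, at adjusted p of up to 0.0983. Scn10a, the sodium channel Nav1.8 of pain-sensing neurons, was at 0.570 to 0.874 CPM in saline day 28 with no count in the collagenase or the day 38 saline libraries, at least 4.97-fold lower after collagenase on the floor of 3 counts (edgeR adjusted p = 0.0209). Its call was lost without collagenase library 2 or 3 or saline library 1 or 4, at adjusted p of up to 0.0628. Of 10 neuron markers tested, 5 fell and none rose (median -1.66), the others called being Tubb3, a neuronal tubulin, and Prph, peripherin, which had no call in any fit that left out a library. The count was 2 without any one of the collagenase libraries and 1 without the libraries with salivary transcripts. The summed level of the 13 neuron markers overlapped, at 31.0 to 42.3 CPM after collagenase and 38.9 to 61.9 CPM in saline day 28. None of 15 Schwann and nerve markers was called by edgeR, DESeq2 or limma voom, or had an unadjusted p under 0.05.

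**Figure D4:**
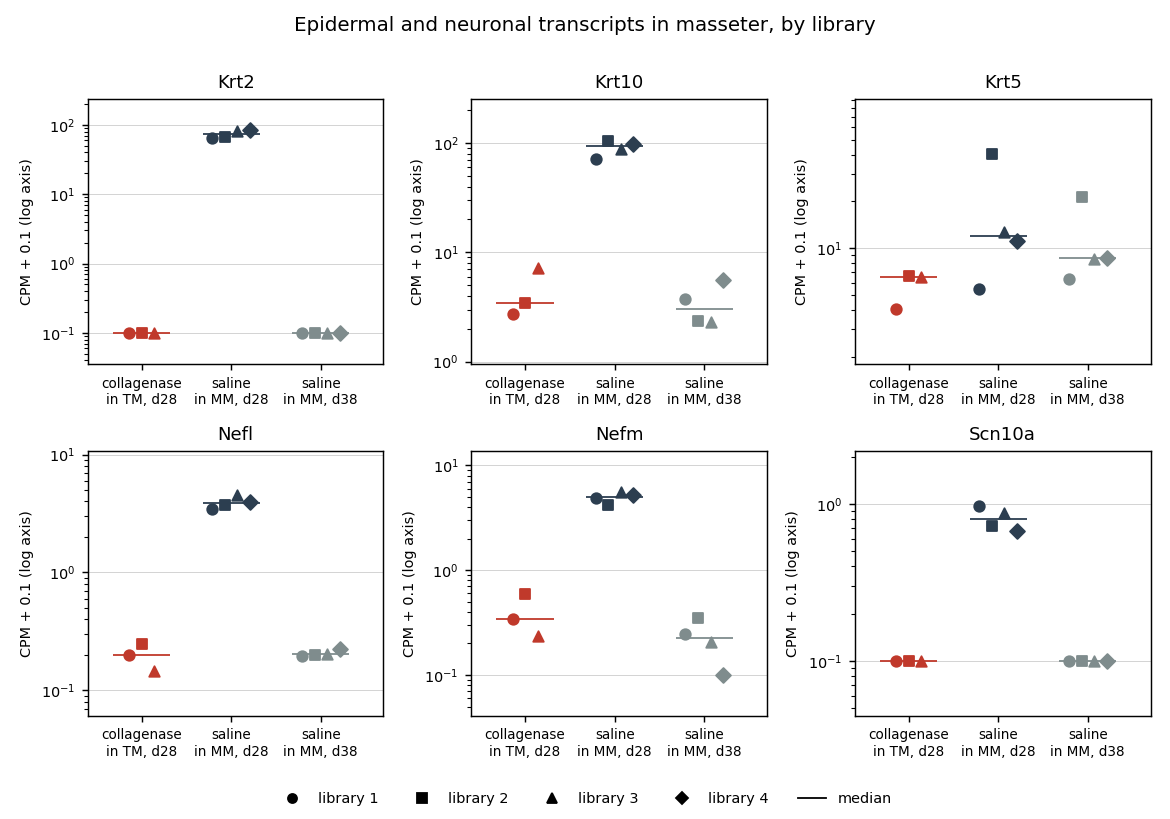
Level of 6 epidermal and neuronal transcripts in each library (CPM plus 0.1, log axis, so a library with no count sits at 0.1), with the same groups and markers as in the plot of muscle transcripts; lines are medians. The 4 saline day 28 libraries sit together for Krt2 at 65.4 to 83.4 CPM and for Nefl at 3.36 to 4.41 CPM, apart from both other groups, while Krt5 overlaps between all of them.

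Scd3, Aqp3 and Muc19 fell, and their levels in saline day 28 were very uneven. Scd3, a fatty acid desaturase of sebaceous glands, was at 6156 CPM in saline day 28 library 2 and at 0.415 to 1.64 CPM in the other 3, with 1 count in all after collagenase (edgeR adjusted p = 0.0451, lost without any one of the collagenase libraries, at up to 0.172). Without saline library 2 its call held, at a log2 fold change of -5.76. Aqp3, a water and glycerol channel of epithelia, was at 68.7 CPM in the same library against 1.57 to 2.14 CPM in the others and 0 to 0.179 CPM after collagenase (log2 fold change -7.54 ± 1.71, edgeR adjusted p = 0.0314, lost without any one of the collagenase libraries). The groups did not overlap, and without saline library 2 its call held at a log2 fold change of -4.26. Muc19, a salivary mucin, was at 106 and 736 CPM in saline libraries 1 and 4 and below 0.46 CPM in the other 5 libraries (edgeR adjusted p = 0.0382). The call was lost without any one of the collagenase libraries or saline library 1 or 4, at up to 0.154. Summed B cell markers reached 152 CPM in saline library 3 against 2.71 to 32.6 CPM in the other 6 libraries, and summed adipocyte markers reached 12200 CPM in saline library 2 against 1400 to 4360 CPM. None of the 10 B cell, 8 T and NK cell or 18 adipocyte markers tested was called by edgeR (1, 4 and 6 at an unadjusted p under 0.05; 1, 0 and 3 by DESeq2).

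**Figure D5:**
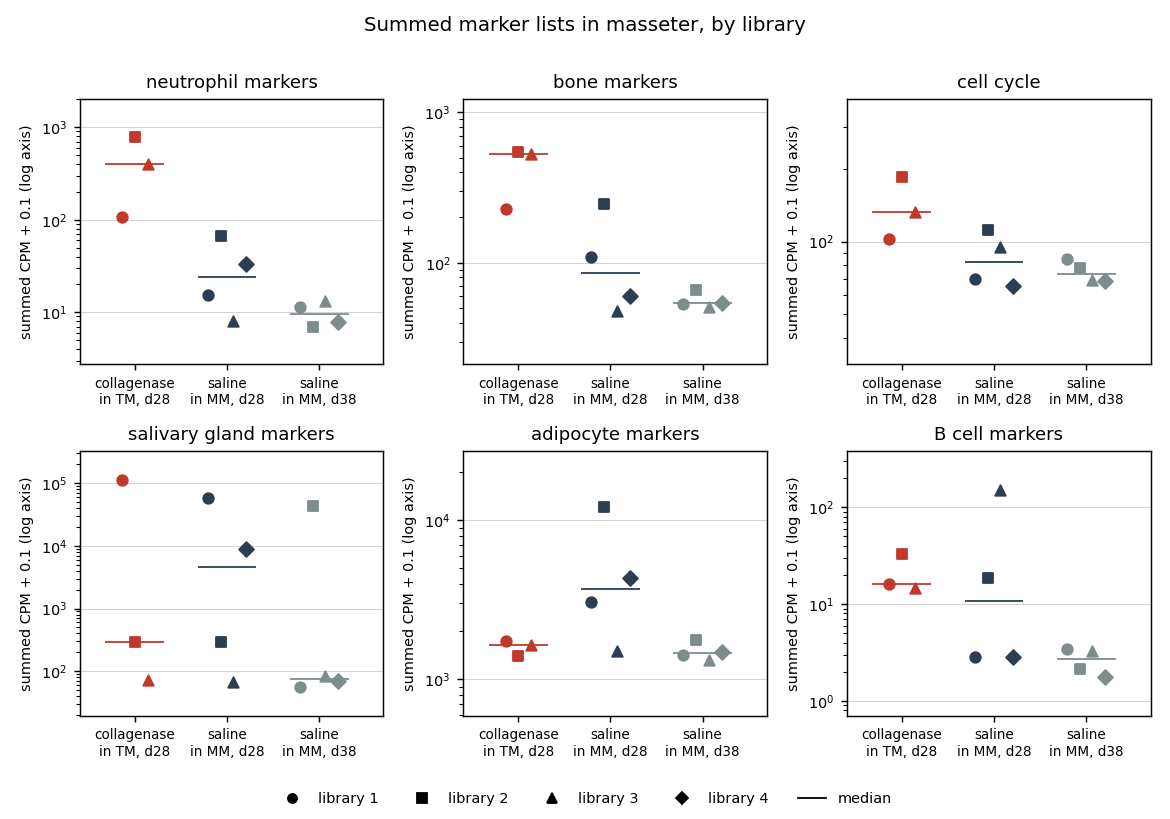
Summed level of 6 marker lists in each library (CPM plus 0.1, log axis), with the same groups and markers as in the plot of muscle transcripts; lines are medians. The neutrophil sum is 106 to 793 CPM after collagenase and at most 67.2 CPM in saline day 28. The salivary, adipocyte and B cell sums are uneven among the saline day 28 libraries.

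The study concerns referred pain, and the listed mediators and receptors of pain and inflammation gave almost no calls in masseter at day 28. Over all genes 2.95% were called, and at that share lists this short would hold few calls as well. None of 32 tested pain mediators and receptors was called (median -0.02), none of 15 prostaglandin genes (0.42), none of 18 complement genes (0.45) and none of 28 interferon response genes (-0.01). At an unadjusted p under 0.05 these lists gave 8, 5, 2 and 3 genes, where 21.3% of all genes did so, and DESeq2 called 3, 3, 1 and 0 and limma voom 2, 0, 0 and 0. Of 25 ion channels, Scn10a was the 1 called. Ntf5, neurotrophin 4, was at 4.99 to 6.83 CPM after collagenase, 3.50 to 4.46 CPM in saline day 28 and 2.82 to 3.61 CPM in saline day 38. Its log2 fold change of 0.62 ± 0.16 fell just short of the threshold (edgeR adjusted p = 0.0561) and passed it with DESeq2 (adjusted p = 0.0157) and limma voom (adjusted p = 0.0497), and against saline day 38 it was 0.84 ± 0.16 (edgeR adjusted p = 0.0062). Ptgs2, the inducible cyclooxygenase, was at 0.737, 0.889 and 0.761 CPM after collagenase, 0.218 to 0.454 CPM in saline day 28 and 0.332 to 0.923 CPM in saline day 38 (log2 fold change 1.35 ± 0.39, edgeR adjusted p = 0.0788). Calca, which encodes the neuropeptide CGRP, had 2 counts in all after collagenase and 43 in saline day 28, and did not pass the test (edgeR adjusted p = 0.0626; limma voom adjusted p = 0.0232). Il6 stood at 0.0987 to 0.147 CPM after collagenase and 0.0437 to 0.155 CPM in saline day 28, too low to be tested.

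Among 22 cytokines and chemokines, Tgfb2, a growth factor that drives matrix formation, was the 1 called. It was at 22.6, 18.6 and 20.2 CPM after collagenase and 15.5, 9.96, 11.3 and 10.9 CPM in saline day 28 (log2 fold change 0.78 ± 0.14, edgeR adjusted p = 0.00896), with a call in each fit that left out a library. Saline day 38 was level with collagenase, at 20.2 to 22.5 CPM (log2 fold change -0.07 ± 0.14, edgeR adjusted p = 0.803). None of 20 clock genes, 24 immediate early genes or 25 heat shock and chaperone genes was called, with medians of 0.20, 0.22 and -0.10 (4, 3 and 1 at an unadjusted p under 0.05; 1, 0 and 0 by DESeq2). Of 20 glucocorticoid response genes, Lcn2, described above among granule genes, was the 1 called. Fkbp5, a glucocorticoid-induced chaperone, was at 32.7 to 53.7 CPM after collagenase, 39.3 to 103 CPM in saline day 28 and 97.9 to 139 CPM in saline day 38. These counts of called genes stand beside the 2.95% called over all genes, and those at an unadjusted p under 0.05 beside 21.3%.

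Part of the largest changes fell on genes with near-identical copies, where reads of different length can be shared out differently and the values are uncertain. Ndufs5, a complex I subunit, was at 42.5, 41.4 and 51.0 CPM after collagenase, 37.7 to 46.4 CPM in saline day 38 and 0 in all 4 saline day 28 libraries, at least 328-fold higher on the floor of 3 counts per library (edgeR adjusted p = 9.69e-11). Rpl26, a ribosomal protein, Btg3, an antiproliferative factor, and H2-Q8, a class I histocompatibility gene, were likewise at 0 in saline day 28 and at least 43.9, 39.9 and 44.4-fold higher. Atp6v0c, the proteolipid of the vacuolar proton pump, was at 130, 136 and 137 CPM after collagenase and at 0, 11.5, 0 and 0.155 CPM in saline day 28, while its pseudogene Atp6v0c-ps2 was at 0, 0.938 and 0 CPM and at 130 to 138 CPM. Added together they came to 135 ± 3.90 CPM (SD, n = 3) and 137 ± 9.01 CPM (SD, n = 4), so the sums overlapped where each part did not. The call of Atp6v0c was lost without collagenase library 2 (adjusted p = 0.0624) or 3 (0.054). Rpl34 fell by 3.74 ± 0.12 (edgeR adjusted p = 9.69e-11) while Rpl34-ps1 rose by 5.52 ± 0.98 (edgeR adjusted p = 0.00869). Their sum was 133 ± 10.5 CPM (SD, n = 3) against 162 ± 12.2 CPM (SD, n = 4). Unlike those of Atp6v0c, these sums did not overlap, at 126 to 145 CPM after collagenase and 151 to 179 CPM in saline day 28. The glycolytic enzyme Gapdh, which also has many pseudogenes, was at 3870 to 4174 CPM after collagenase, 631 to 954 CPM in saline day 28 and 6033 to 6762 CPM in saline day 38 (log2 fold change 2.34 ± 0.13, edgeR adjusted p = 7.12e-08), and was the 1 called of 26 glycolysis genes. Of the 432 genes called, 61 bear predicted, clone or pseudogene names, and of 63 ribosomal protein genes 4 rose and 6 fell.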

How the data were processed

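RNA-seq libraries of mouse masseter were prepared from about 500 ng of RNA with a stranded mRNA kit, per the labels' protocols. The same protocols give 50-base single-end or 100-base paired-end runs and name a HiSeq 2500 and a NovaSeq 6000. RSEM was used with mm10, per the submitters' processing notes; its version, aligner, annotation release and strand handling are not stated in the sources at hand. In the deposited tables, expected counts are unscaled estimates per gene, per the file headers, and were rounded to whole numbers. The deposited TPM values, per the file headers, were used for levels between genes and as an alternative. Layout was read from the deposited gene lengths, in bases: length minus effective length was 49.5 bases in saline day 28 and 223 to 237 bases in the other groups used.

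All 17 masseter libraries were fitted in 1 edgeR 4.0.16 quasi-likelihood model by group (R 4.3.3, TMM factors, low genes removed by filterByExpr, 14652 genes kept), with Benjamini-Hochberg adjustment and a threshold of 0.05. The authors' counts of no pair of libraries within these groups agreed within sampling noise (chi-square per gene 21.2 to 346). Floors of 3 counts and 95% intervals cover counting error only. Alternatives used limma 3.58.1 and DESeq2 1.42.0, and the procedure was tested on simulated data. The members and the 45 gene lists were chosen with earlier results of these data known. Genes named are the 12 largest rises and falls among called genes that moved by 1 or more on the log2 scale, reached a group mean of 5 CPM and did not overlap, the same with saline day 38 also passed, up to 6 members per list with the smallest p, and a fixed set of reference genes; genes outside this rule were picked with their values in view. Predicted, clone and pseudogene names were left out of the first 2 sets. Some genes of these sets are not reported here.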

Additional observations from a re-analysis of the deposited data

Results flagged for a closer look

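Among the 86 called genes that were named or listed, 5 had a saline day 28 library that stood apart from the other 3 (gap to the nearest value divided by the range above Dixon's 95% critical value for 4 samples, which chance exceeds in about 1 of 20 groups). Scd3 was at 6156 CPM in saline library 2, with the nearest at 1.64 CPM. Aqp3 was at 68.69 CPM in the same library, with the nearest at 2.14 CPM. Atp6v0c was at 11.51 CPM in the same library, with the nearest at 0.155 CPM. Muc19 was at 736.3 CPM in saline library 4, with the nearest at 106 CPM. Omd, a keratan sulfate proteoglycan of bone, was at 1.181 CPM in saline library 3, below the nearest value of 2.05 CPM.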

How the results depend on the processing

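No paired analysis was possible because the collagenase and saline libraries at day 28 share no replicate number in the labels. The count of genes called between the day 28 groups, 432, stayed within 1.5 times under RLE size factors, limma voom, no filter, a stricter filter, the effective length offset and without predicted, pseudogene and ribosomal protein genes. It was 1058 with DESeq2, 93 when only the 7 libraries were fitted, 184 and 178 on log2 TPM with pseudocounts of 0.5 and 0.1, 124 without the genes called likewise between the saline groups, and 67 without the libraries with salivary transcripts, a choice made after seeing the data. The fit without the libraries with salivary transcripts also had fewer libraries in both groups. Leaving out each library gave 123 to 646. The comparison with saline day 38 gave 1599 genes, and 565 and 534 on log2 TPM with pseudocounts of 0.5 and 0.1. The saline groups differed in 3608 genes, 2035 when only their libraries were fitted, and 1864 and 1873 on log2 TPM, where 24.6% and 25.0% of calls were higher against 47.6% in the main fit. With the length offset 61.7% of the day 28 calls were higher, against 39.8%. The cause of these moves was not tested. Of the 86 named or listed genes called, 34 were called in every fit that left out a library and 26 under every other planned setting that gave a value. Ms4a1, a B cell gene at -2.89 on the log2 scale, ranged from -3.31 to 6.09 when 1 library was left out, and turned positive without saline library 3. Depth limits genes under about 1 CPM, where a group of libraries holds few counts.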
